A study of Mus musculus with 19 samples.

Results

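The 9 genes Ccdc80, Tnc, Fn1, Sparc, Thbs1, Tagln, Acta2, Postn and Thy1 are mesenchymal and fibroblast genes that do not encode collagens, and they were followed among the 23420 genes counted in RNA from mouse pluripotent stem cells. They were chosen by symbol, and with a measured value in view: Ccdc80 and Tnc had been selected on their counts in embryonic stem cells (ESC) and their absence from 12 induced pluripotent stem cells (iPSC), and the question was whether the other 7 follow. The contrast of iPSC with ESC is therefore described for these genes and was not tested. All 9 had counts in all 3 ESC, and 6 of the 9 passed the filter on low counts in the fit of the cell states.

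The study derived iPSC from inbred mouse strains and compared them with ESC and with epiblast stem cells (EpiSC), a later, primed state of pluripotency. The ESC were 1 male line each of NOD/ShiLtJ, WSB/EiJ and 129S1/SvImJ at passage 6, in 2iS, which is serum-containing ESC medium with inhibitors of GSK3B and MEK. The EpiSC were a NOD/ShiLtJ line at passage 38 and a 129 line at passage 16, both male, in EpiSC medium. The methods give the 129 EpiSC as of 129/Sv background, so it need not be of the substrain of the 129S1/SvImJ ESC and iPSC. The 14 iPSC were made from embryonic fibroblasts with lentiviral reprogramming factors and had been passaged 16 to 31 times. In 2iS these were 2 male and 2 female NOD/ShiLtJ clones, 2 male and 2 female WSB/EiJ clones, and 129S1/SvImJ male clones 1 and 17. In ESC/LIF, the standard medium with leukemia inhibitory factor, they were 129S1/SvImJ male clones 1 and 17 again and female clones 5 and 8. Each library is 1 line or clone, so a group holds few lines, and the same 129S1/SvImJ clones appear in both media. The NOD/ShiLtJ male iPSC were kept apart from the others, which leaves the 12 iPSC of the comparisons below.

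The iPSC were themselves derived from fibroblasts, and the methods describe feeder fibroblasts being removed from iPSC at passage 16 or later, before RNA was taken. How the ESC and EpiSC were separated from feeders is not given in the sources used here. The ESC were supplied by another laboratory, and the lentiviral reprogramming factors were not removed from the iPSC. Cell state, passage, laboratory, these factors and the removal of feeders cannot be told apart in the comparison of iPSC with ESC. Sex and medium were not matched either. The ESC were all male and the iPSC of both sexes. Of the 12 iPSC, 4 were in ESC/LIF, without the inhibitors, and the methods name sodium pyruvate in the medium of the ESC. Since RNA was taken from whole cultures, fewer cells of a type and less RNA per cell cannot be told apart either.

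Mesenchymal cells surround themselves with a matrix that they secrete, and embryonic fibroblasts, the usual feeder layer of mouse stem cell culture, are such cells. Fibronectin and the collagens form the fibres of this matrix. The matricellular proteins, among them tenascin-C, periostin, thrombospondin 1 and SPARC, sit in it and change how cells attach. Activated fibroblasts also build contractile fibres with smooth muscle actin and transgelin, and the surface protein THY1 is widely used to recognize fibroblasts. Fibronectin and SPARC are not restricted to fibroblasts and are made by early embryonic cells too.

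The RefSeq promoter table (GRCm38.p6) held 4 of the 9 genes. The 3 that were at or near 0 in iPSC (Tnc, Postn and Acta2) and 1 that was not (Sparc) are printed so that their start regions can be compared, each from 250 bases before to 50 bases after the annotated start, on the strand of the gene. Matches to the 4 motifs searched on both strands are in capitals. Tnc lies at chr4:64046966-64047265 on the minus strand, Postn at chr3:54360857-54361156 on the plus strand, Acta2 at chr19:34255324-34255623 on the minus strand and Sparc at chr11:55420031-55420330 on the minus strand.
Tnc: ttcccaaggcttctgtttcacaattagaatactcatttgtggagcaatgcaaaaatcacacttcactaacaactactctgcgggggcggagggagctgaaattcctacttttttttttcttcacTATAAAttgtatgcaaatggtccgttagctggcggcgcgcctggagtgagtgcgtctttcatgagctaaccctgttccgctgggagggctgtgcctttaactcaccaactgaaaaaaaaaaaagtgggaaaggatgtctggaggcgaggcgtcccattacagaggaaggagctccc
Postn: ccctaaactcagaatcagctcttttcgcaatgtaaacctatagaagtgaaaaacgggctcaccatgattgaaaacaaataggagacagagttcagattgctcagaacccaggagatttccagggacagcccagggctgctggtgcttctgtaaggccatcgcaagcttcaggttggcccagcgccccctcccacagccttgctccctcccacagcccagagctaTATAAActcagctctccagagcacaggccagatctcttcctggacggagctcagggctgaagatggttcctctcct
Acta2: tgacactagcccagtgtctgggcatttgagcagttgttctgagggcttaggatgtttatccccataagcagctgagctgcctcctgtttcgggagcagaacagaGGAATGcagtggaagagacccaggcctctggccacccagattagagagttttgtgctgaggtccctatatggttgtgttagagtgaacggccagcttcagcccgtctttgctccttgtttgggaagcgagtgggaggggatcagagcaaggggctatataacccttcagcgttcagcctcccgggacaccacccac
Sparc: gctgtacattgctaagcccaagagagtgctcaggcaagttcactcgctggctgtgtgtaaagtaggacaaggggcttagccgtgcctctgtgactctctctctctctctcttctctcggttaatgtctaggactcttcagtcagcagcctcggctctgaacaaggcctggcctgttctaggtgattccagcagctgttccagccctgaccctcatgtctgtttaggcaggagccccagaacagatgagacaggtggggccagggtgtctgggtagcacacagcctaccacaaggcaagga

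The letters TATAAA were found in Tnc, starting at position -126 from the annotated start, and in Postn, starting at position -26, and 13.6% of all 32851 promoters in the table hold them. The letters CATTCC, the core that TEAD factors bind, were found in Acta2 at position -146 on the opposite strand, against 14.7% of all promoters. The AP-1 letters TGACTCA or TGAGTCA (5.20% of all promoters) were in none of the 4. The strict form of the CArG box, the element that serum response factor binds (CC, then 6 bases that are A or T, then GG; 1.63%), was in none either, but with 1 base off that form Acta2 held CCCTATATGG at position -84 and CCTTGTTTGG at position -34, in lower case above, and the other 3 genes held none. This looser form, added after seeing the data, was in 19.9% of all promoters. No motif was shared by all 3 genes that were low in iPSC. The annotated start of Acta2 lies 217 bases and that of Sparc 3103 bases from the outer start of the gene in GENCODE M21, the annotation used for exons.

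Read pairs counted on genes numbered 92996 to 567432 per library. These were 5.62% and 5.59% of the uniquely aligned read pairs in the NOD/ShiLtJ male iPSC and 1.15% to 1.74% in the other 17 libraries. A count of 3 was worth 5.29 to 32.3 CPM (counts relative to the size of the library) depending on the library, so a gene with a few counts is close to the limit of detection. Gapdh, a gene that all cells use, had 0 to 27 counts and Actb 54 to 1467. The titles of the samples were used for the conditions, since the source name and characteristics name other conditions in all 19. The labels of cell state were checked against markers. These could set EpiSC apart but not ESC from iPSC, so that split rests on the titles. Of 9 markers of naive pluripotency, all 9 had counts in ESC and in iPSC, with summed levels of 1183 to 1864 CPM in ESC and 1464 to 2516 CPM in the 12 iPSC, against 36.1 and 37.9 CPM in the EpiSC. The 7 markers of primed cells did not separate the states as a list, with 103 and 318 CPM in EpiSC, 199 to 376 CPM in ESC and 34.1 to 270 CPM in the 12 iPSC. Lefty2 made up most of it outside EpiSC (92 counts in ESC and 4 in EpiSC), while Fgf5 and Cer1 had 17 and 7 counts in EpiSC and 0 in ESC and the 12 iPSC. The library kit marks strand, and whether the counting used the matching strand setting is not given in the sources used here. Genes with exons opposite exons of another gene make up 30.3% of annotated exon length and held 61.3% to 76.8% of the counts in 17 libraries, and 38.3% and 38.8% in the NOD/ShiLtJ male iPSC. Xist had 593 to 610 counts in the 3 male ESC and 2 to 531 elsewhere without following sex (487 in male 129S1/SvImJ clone 1 in ESC/LIF, 155 and 205 in the female NOD/ShiLtJ clones), and Tsix, its opposite-strand partner, 25 to 66 in the ESC. A count may therefore hold read pairs from the strand opposite to the gene it is listed under, and each level below is a count listed under a gene, not shown to be its sense transcript.

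CPM are counts scaled by the TMM method of edgeR to a common library size. Ccdc80 (chr16:45093402-45128077 in GRCm38), which encodes a secreted protein of the matrix, was counted in ESC only. It had 7 counts in the NOD/ShiLtJ ESC, 15 in the WSB/EiJ ESC and 24 in the 129S1/SvImJ ESC, and 0 in all 16 other libraries. In the ESC this was 63.1, 134 and 159 CPM, a mean of 119 ± 49.9 CPM (SD, n = 3). Against the floor of 3 counts over the 12 iPSC, 1.71 CPM, the pooled level in ESC was at least 72.1-fold higher, and against the floor over the 2 EpiSC at least 13.4-fold higher. Such bounds, here and below, divide the pooled level by the floor. They leave out the counting error of the pooled level and are not confidence limits. No exon of another annotated gene lies opposite its exons.

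Tnc (chr4:63959785-64047015), tenascin-C, had nearly the same counts as Ccdc80 in each ESC line, with 7, 16 and 22. It was at 0 in all 14 iPSC, and the pooled level in ESC was at least 70.5-fold above the floor over the 12 iPSC. Unlike Ccdc80 it had counts in EpiSC, 13 in the 129 line and 1 in the NOD/ShiLtJ line. The 129 EpiSC stood at 98.5 CPM, between the lowest ESC at 63.1 CPM and the highest at 146 CPM.

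Postn and Thy1 followed Ccdc80 and Tnc. Postn (chr3:54361109-54391037), periostin, had 4, 4 and 10 counts in the NOD/ShiLtJ, WSB/EiJ and 129S1/SvImJ ESC, 1 count in the 129 EpiSC and 0 elsewhere. Thy1 (chr9:44043384-44048579) had 2, 6 and 2 counts in the ESC, 3 in the NOD/ShiLtJ EpiSC, 1 in NOD/ShiLtJ male clone 35 and 0 in the 12 other iPSC. Over the pooled libraries, the level in ESC was at least 28.2-fold above the floor of the 12 iPSC for Postn and at least 15.7-fold for Thy1. With 2 counts in a pair of the ESC, Thy1 was itself under the floor of 3 counts in those lines.

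Acta2 (chr19:34241090-34255590), the actin of smooth muscle and myofibroblasts, had 4, 10 and 9 counts in the ESC. Among iPSC it had 1 count in WSB/EiJ clone 12, 2 in 129S1/SvImJ clone 1 in ESC/LIF and 0 in the other 12. The pooled ratio of ESC to the 12 iPSC was 36.05 (95% counting interval 10.9 to 188). The 129 EpiSC had 12 counts, as many CPM (90.9) as the highest ESC (89.6), and the NOD/ShiLtJ EpiSC 1 count.

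Thbs1 (chr2:118111876-118127133), thrombospondin 1, an adhesive glycoprotein that can activate latent TGF-beta, followed with a residue. The ESC had 37, 52 and 93 counts, or 334 to 617 CPM. The 12 iPSC had 0 to 9 counts with a median of 1, and 7 of the 12 had any. The highest iPSC was WSB/EiJ clone 28 at 80.0 CPM, and every ESC was above every iPSC. The pooled ratio of ESC to the 12 iPSC was 37.2 (95% counting interval 24.04 to 60.2).

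The other 3 members did not follow. Fn1 (chr1:71585520-71653200), fibronectin, had 121, 109 and 195 counts in the ESC and 33 to 177 in the 12 iPSC, with a median of 62. In CPM the ESC lay between 977 and 1293 and the iPSC between 262 and 937, so the groups did not overlap but lay close to each other. Scaled to uniquely aligned read pairs (aligned CPM), without TMM, the lowest ESC (11.3) was below the highest iPSC (14.8, NOD/ShiLtJ female clone 7) and the groups overlapped. The pooled ratio of ESC to iPSC was 2.22 (95% counting interval 1.97 to 2.49).

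Sparc (chr11:55394500-55423183), a protein that binds collagen and calcium, had 11, 20 and 39 counts in the ESC and 2 to 31 in the 12 iPSC. The mean was 179 ± 79.8 CPM in ESC (SD, n = 3) and 106 ± 70.8 CPM in iPSC (SD, n = 12), and the groups overlapped. Within iPSC the WSB/EiJ clones, at 123 to 276 CPM, were as high as the ESC. Tagln (chr9:45929619-45936058), transgelin, had 13, 3 and 10 counts in ESC and 2 to 19 in the 12 iPSC. Its means were 70.1 ± 45.3 CPM and 75.3 ± 22.0 CPM, which differ by less than either SD. Of the 1988 exonic bases of Tagln, 1349 (67.9%) lie opposite exons of other genes, among them Pcsk7, which had 0 to 19 counts in the 19 libraries. The share is 2.26% in Tnc, 2.50% in Fn1, 3.43% in Thbs1 and 0 in the other 5.

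In CPM, every ESC was above every one of the 12 iPSC for 7 of the 9 members. Among the genes in the fit this held for 4 of the 6 members and for 4.44% of all 3986. A count in every ESC and none in the 12 iPSC was found for 4 members (Ccdc80, Tnc, Postn and Thy1), and for 31 of the 7652 genes with a count in every ESC (0.405%). Since Ccdc80 and Tnc were chosen by this contrast, nothing is read from these shares. The 6 members that were at or near 0 in iPSC, grouped here after their values were seen, summed to 550 to 1061 CPM in ESC, 0 to 80.0 CPM in the 12 iPSC and 3.20 and 3.76 CPM in the NOD/ShiLtJ male iPSC.

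The ESC lines differed among themselves. The NOD/ShiLtJ line was the lowest of the 3 for Ccdc80, Tnc, Acta2, Thbs1 and Sparc, and the highest for Tagln. The WSB/EiJ line was the highest for Acta2 and Thy1, and the 129S1/SvImJ line for Ccdc80, Tnc, Postn, Thbs1, Fn1 and Sparc. With 1 line per strain this has no replicate check. For Ccdc80 the 95% counting interval of the NOD/ShiLtJ line, 25.4 to 130 CPM, overlapped that of the 129S1/SvImJ line, 102 to 237 CPM.

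Between genes, levels were compared per kilobase of exon. In ESC the order was Fn1 (95.9 ± 13.7 CPM per kb; SD, n = 3), Thbs1 (77.7 ± 23.35), Sparc (47.3 ± 21.06), Tagln (35.3 ± 22.8), Acta2 (28.1 ± 12.2), Ccdc80 (27.7 ± 11.6), Tnc (15.1 ± 6.06), Thy1 (9.47 ± 7.39) and Postn (5.29 ± 2.02). Neighbours in this order differed by less than the larger of their SDs, except Thbs1 from Sparc and Ccdc80 from Tnc. By raw counts Fn1 held 50.3% of the members' counts in ESC and 72.6% in the 12 iPSC.

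The EpiSC were not used to choose the genes. Tests here and below are edgeR's quasi-likelihood test with Benjamini-Hochberg adjustment over all genes tested, at an adjusted p under 0.05. Ccdc80 and Tnc were left untested where the 12 iPSC or the ESC enter. Thbs1 was lower in the 12 iPSC (14.7 ± 23.2 CPM) than in the 2 EpiSC (235 ± 310 CPM), by a log2 fold change of -3.98 (SE 0.774). It had 0 to 9 counts in the 12 iPSC and passed the filter through the 129 EpiSC and the ESC, by which the genes were chosen. The change and call of Thbs1 are therefore a description. Tagln was lower as well, with 75.3 ± 22.0 against 201 ± 197 CPM and a log2 fold change of -1.32 (SE 0.425, edgeR adjusted p = 0.0245). Fn1 (log2 fold change 0.62, edgeR adjusted p = 0.387) and Sparc (-0.55, edgeR adjusted p = 0.493) did not pass. So 2 of the 4 members tested were called, Thbs1 among them as a description, where 28.3% of all genes were. Both calls were lost without the 129 EpiSC, where the fit assumes that the remaining EpiSC varies like the other groups: without it the log2 fold change was -0.22 for Thbs1 (edgeR adjusted p = 0.947) and 0.30 for Tagln (edgeR adjusted p = 0.772), and Fn1 passed at 2.99 (edgeR adjusted p = 0.00445). Scaled to uniquely aligned read pairs, the change of Tagln was -0.70 and did not pass (edgeR adjusted p = 0.175).

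The 2 EpiSC lines were far apart for most members. In the 129 line against the NOD/ShiLtJ line, Thbs1 had 60 against 3 counts, Fn1 81 against 12, Tagln 45 against 12, Sparc 32 against 14, Tnc 13 against 1 and Acta2 12 against 1. Thy1 went the other way, with 0 against 3 counts. Ccdc80 was at 0 in both. The lines differ in strain, passage and the laboratory that supplied them, which cannot be told apart.

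The ESC libraries are those by which the genes were chosen, so these values are not independent. Fn1 was at 1120 ± 160 CPM in ESC (n = 3) and 338 ± 390 CPM in EpiSC (n = 2), a log2 fold change of 1.78 (SE 0.608) that lies at the threshold. It did not pass with library sizes taken after the filter (edgeR adjusted p = 0.0516), and passed with those from before the filter (edgeR adjusted p = 0.0450) and with DESeq2 (adjusted p = 0.0327). Thbs1 (1.08, edgeR adjusted p = 0.423), Sparc (0.25, edgeR adjusted p = 0.847) and Tagln (-1.45, edgeR adjusted p = 0.0848) did not pass, so 0 of the 4 members tested were called, where 15.1% of all genes were. These calls changed with the EpiSC line present. With 1 EpiSC left, the fit assumes that it varies like the other groups: without the 129 line Fn1 (4.14, edgeR adjusted p = 0.00158) and Thbs1 (4.84, edgeR adjusted p = 0.0227) passed, and without the NOD/ShiLtJ line Tagln did (-2.27, edgeR adjusted p = 0.00646). Acta2, Postn and Thy1 were under the filter on low counts in all of these comparisons.

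The 2 NOD/ShiLtJ male iPSC entered neither the choice of the genes nor the 12 iPSC. Ccdc80, Tnc, Acta2 and Postn were at 0 in both clones, Thy1 had 0 and 1 counts, and Thbs1 3 and 1, with library totals above those of every other clone. The floor over both was 2.11 CPM, so the pooled level in ESC was at least 58.4-fold higher for Ccdc80 and at least 57.1-fold for Tnc. Fn1 was the exception, with 2878 counts in clone 3 and 1603 in clone 35, or 3607 and 2568 CPM, above every other library. Against the 12 iPSC its log2 fold change was 2.62 (SE 0.369, edgeR adjusted p = 4.02e-06), and 47.0% of the 4641 genes tested were called in this comparison.

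Tagln was lower in the NOD/ShiLtJ males, with 11.3 and 12.8 CPM against 75.3 ± 22.0 CPM in the 12 iPSC (log2 fold change -2.63, SE 0.530, edgeR adjusted p = 0.000333). Sparc (0.54, edgeR adjusted p = 0.362) and Thbs1 (-2.03, edgeR adjusted p = 0.173) did not pass. These clones have a far larger share of read pairs on genes, and scaling to uniquely aligned read pairs moved the median of all genes by 2.40 on the log2 scale. On that scale Fn1 was higher by 5.03 (edgeR adjusted p = 2.51e-12) and Sparc by 2.92 (edgeR adjusted p = 2.04e-06), and Tagln was at -0.26 (edgeR adjusted p = 0.649). Actb rose too, by 1.08 with TMM (edgeR adjusted p = 0.00208) and by 3.47 per aligned read pair. None of the other 17 libraries, NOD/ShiLtJ females and males of the other strains among them, reached this level of Fn1 or this share of read pairs on genes. The gene share moves with the group and cannot be told apart from it.

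**Figure D1:**
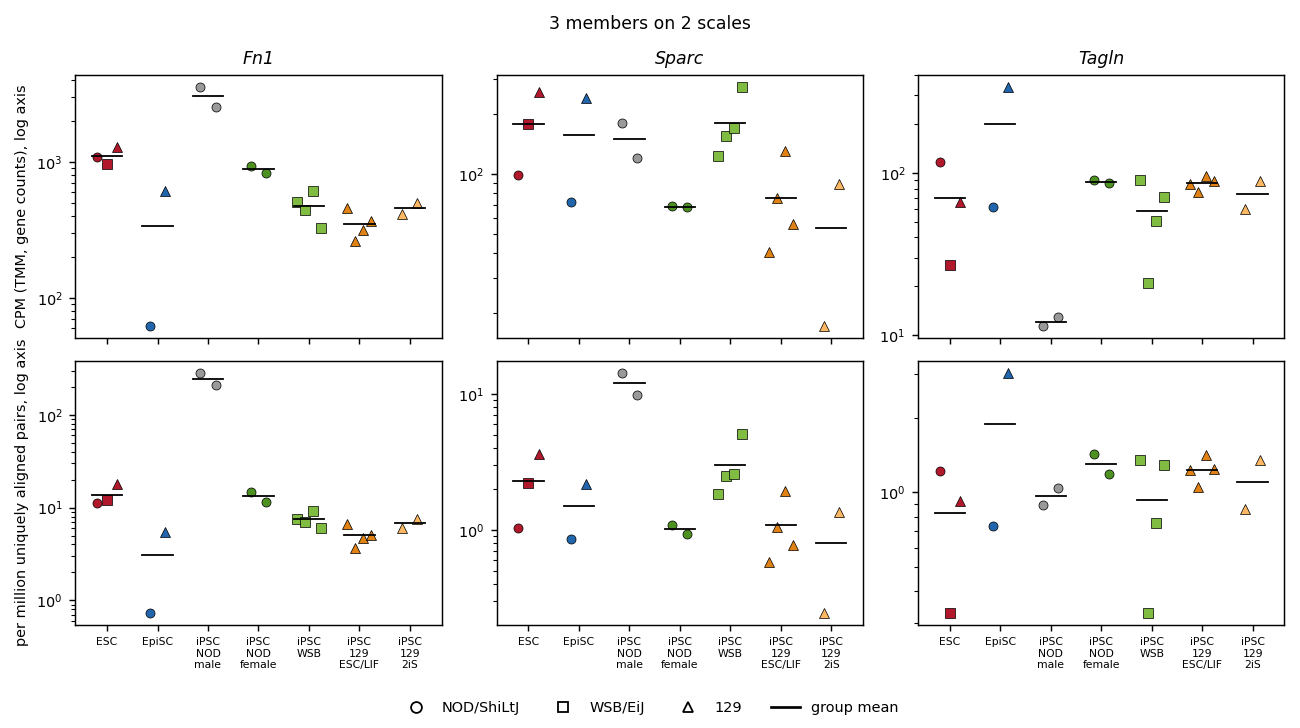
Fn1, Sparc and Tagln in each library on log axes, as TMM-normalized CPM (upper row) and aligned CPM (lower row), with bars for the group means. Fn1 is highest in the NOD/ShiLtJ male iPSC on both scales, and Tagln is lowest there on the upper scale only.

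Medium was compared in the same 2 male 129S1/SvImJ clones, which were derived in ESC/LIF and later moved to 2iS. Clones 1 and 17 were at passages 21 and 20 in ESC/LIF and at passages 31 and 30 in 2iS. Medium and passage therefore cannot be told apart in this comparison. Fn1 had 49 and 67 counts in 2iS and 103 and 33 in ESC/LIF for clones 1 and 17, which is 458 ± 57.1 and 415 ± 65.2 CPM (SD, n = 2). Its log2 fold change was 0.12 (SE 0.284, edgeR adjusted p = 0.926), that of Sparc 0.28 (edgeR adjusted p = 0.926) and that of Tagln -0.20 (edgeR adjusted p = 0.930). None of the 3 members tested passed, where 3.04% of all 3388 genes did. The other 6 were too low to test. Thbs1 had 2 counts in each clone in ESC/LIF and 0 in 2iS, and Acta2 2 counts in clone 1 in ESC/LIF alone, all under the floor of 3 counts.

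Among the 12 iPSC, Thbs1 was present in 3 of 4 WSB/EiJ clones with 0 to 9 counts, in 3 of 4 129S1/SvImJ clones in ESC/LIF with 0 to 2, in 1 of 2 NOD/ShiLtJ female clones with 1 count and in neither 129S1/SvImJ clone in 2iS. Fn1 was higher in the NOD/ShiLtJ female clones (839 and 937 CPM) than in every WSB/EiJ or 129S1/SvImJ clone (262 to 615 CPM). A difference between strains was not tested here.

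The 122 related genes were drawn from 7 lists: matricellular proteins, matrix fibres and proteoglycans, matrix processing enzymes, contractile proteins, fibroblast surface and signalling genes, mesenchymal transcription factors and the TGF-beta pathway. Of these, 9 were at 0 in all 19 libraries, 87 had counts but were under the filter, and 26 were tested. In the 12 iPSC against ESC, 9 of the 26 were lower and 0 higher (edgeR; DESeq2 gave 9 lower and 0 higher), where 5.22% of all genes were lower. A gene can pass the filter through the group where it is high, as Lox, Timp3, Fbln2 and Ogn did through ESC and Thbs3 through EpiSC. Counts, calls and medians over the tested genes, and the fold changes of such genes, are therefore a description. At an unadjusted p under 0.05 the related genes numbered 13. The median log2 fold change of the 26 was -0.81, against 0.05 over all genes. Scaling to aligned pairs moved the median of all genes by 0.29.

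Of the 20 enzymes and inhibitors that process the matrix, 5 passed the filter and all 5 were lower in iPSC. With no filter 8 of 18 were lower, where 514 of all 16808 genes were. Named after their values were seen, Pcolce (11 counts in ESC and 63 over the 12 iPSC) and Timp1 (7 and 33) were not among the lower genes. Lox, which cross-links collagen and elastin, had 8, 15 and 25 counts in the ESC and 1 count over the 12 iPSC, a pooled ratio of 226 (95% counting interval 38.6 to 9099). Timp3, an inhibitor of metalloproteinases that stays bound to the matrix, had 10, 10 and 25 counts in the ESC against 0 to 2 in the iPSC (log2 fold change -4.98, SE 0.621). Serpinh1, the collagen chaperone, fell by 2.28 on the log2 scale and Plod2, a lysyl hydroxylase of collagen, by 1.92. Serpinh1 was at an edgeR adjusted p of 0.0314 and no longer passed with uniquely aligned read pairs (0.0611).

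Of 4 fibre and proteoglycan genes tested, 2 were lower in iPSC. Fbln2, fibulin-2, had 16, 18 and 17 counts in the ESC and 0 to 2 in the iPSC (log2 fold change -5.45, SE 0.638). Ogn, the small proteoglycan osteoglycin, had 31, 28 and 30 counts in the ESC and 0 to 10 in the iPSC (-3.32, SE 0.428). Of 6 contractile genes only Tpm1, a tropomyosin, passed (-1.88, SE 0.390, edgeR adjusted p = 0.00396), and of 5 surface and signalling genes only Vim, vimentin, the intermediate filament of mesenchymal cells (-2.32, SE 0.485, edgeR adjusted p = 0.00418). None of 3 matricellular or 3 TGF-beta pathway genes passed, and no transcription factor reached the filter.

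**Figure D2:**
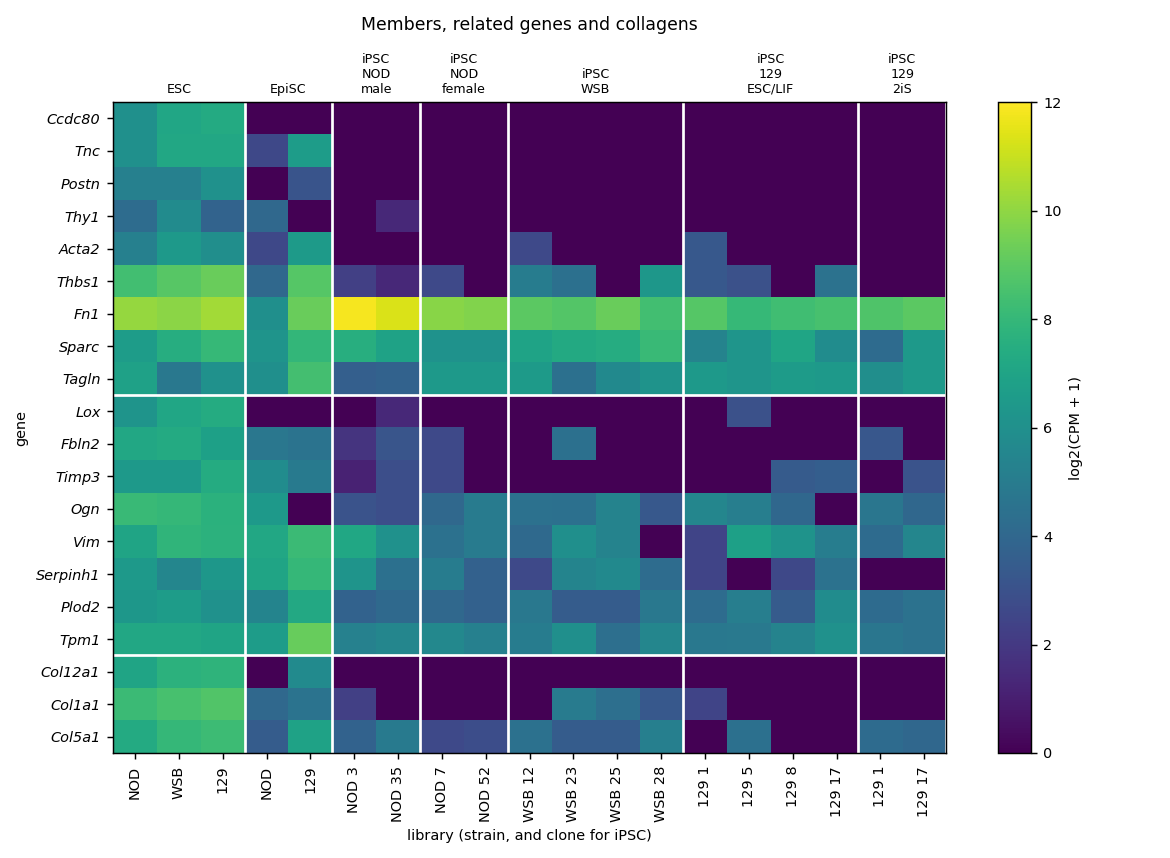
Heat map of log2(CPM + 1) in the 19 libraries for the 9 members, 8 of the 9 related genes that were lower in the 12 iPSC than in ESC, and 3 collagens. Every row is above 0 in the 3 ESC, and most iPSC are at or near 0 for the first 6 members, Lox and Col12a1.

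Of the 58 related genes with a count in every ESC, tested or not, 5 had none in the 12 iPSC, where 0.405% of all such genes did. These were the thrombospondin Thbs2 (3, 1 and 7 counts), the hyaluronan receptor Cd44 (2, 2 and 4), the limb and facial mesenchyme factor Prrx1 (2, 4 and 2), the activin subunit Inhba (1, 3 and 7) and the smooth muscle actin Actg2 (1, 3 and 1). They were under the filter and were named after their values were seen. The contrast is the one by which Ccdc80 and Tnc were chosen, so nothing is read from this share. The 15 transcription factors summed to 81.1 to 125 CPM in ESC, 4.47 to 47.6 CPM in the 12 iPSC and 98.4 and 284 CPM in EpiSC. In EpiSC their counts were mostly of Zeb2, with 57, and in ESC the most were of Zeb1, with 13. Snai2, Twist2, Tcf21 and Osr1 were at 0 in the ESC.

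Related genes in the 12 iPSC against EpiSC were 10 lower and 1 higher of 26, against 28.3% called over all genes, with a median log2 fold change of -0.91 against 0.10 over all genes. Among the lower genes were Thbs3, a thrombospondin (-4.96), Serpinh1 (-3.68), Timp3 (-3.62), Tpm1 (-3.14), Fbln2 (-2.98), Vim (-2.50), Plod2 (-2.11), Srf, the serum response factor itself (-2.002), and Vcl, vinculin (-1.36). Thbs3 had 0 to 4 counts in the 12 iPSC and passed the filter through the EpiSC, with 65 and 31 counts, so its change is a description. Spp1, osteopontin, was higher in iPSC, with 8 to 105 counts against 1 and 9 (2.96, SE 0.699, edgeR adjusted p = 0.00326). Without the 129 EpiSC the called related genes were 6 lower and 1 higher. Comparisons with iPSC in common share those libraries, so the overlap of these genes with those of the ESC is not given as a result.

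**Figure D3:**
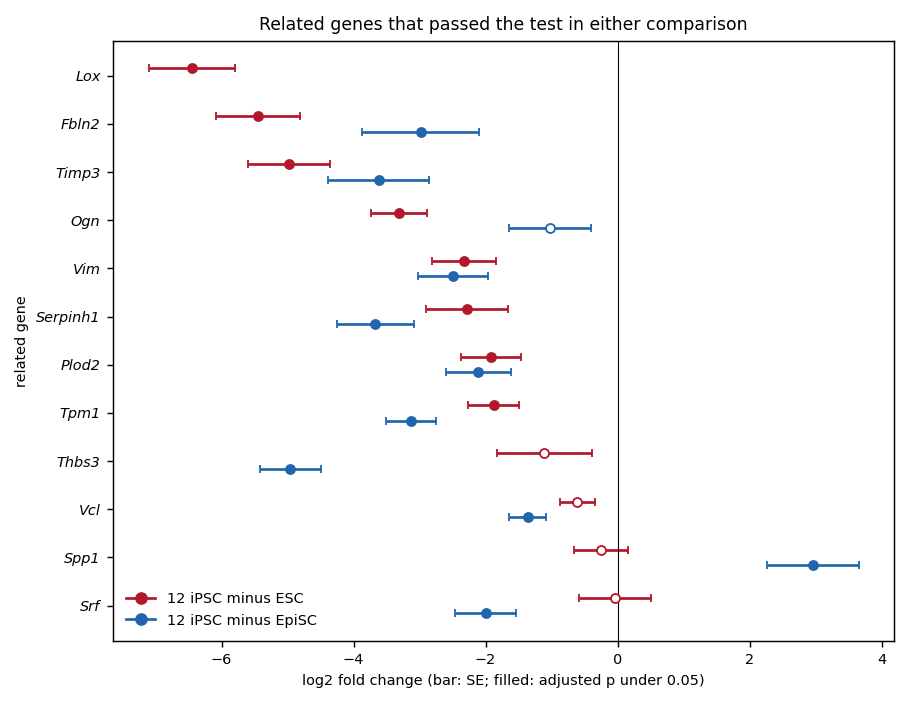
Log2 fold changes of 12 of the 13 related genes that passed the test in the 12 iPSC against ESC or against EpiSC, with SE as bars and filled points where the edgeR adjusted p was under 0.05. Against ESC the 8 filled points drawn are left of 0, and against EpiSC 9 are left of 0 and Spp1 is right of it. Lox is not drawn against EpiSC, since both groups are under the floor of 3 counts.

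In ESC against EpiSC, 3 of 26 related genes were higher and 2 lower, near the 15.1% called over all genes, with a median of -0.01 against 0.06 over all genes, also with Lox at its bound. Lox was at 0 in both EpiSC, so the pooled level in ESC was at least 14.0-fold higher. Spp1 (3.20, edgeR adjusted p = 0.00707) and Ogn (2.29) were the others that were higher in ESC. Ogn had 17 counts in the NOD/ShiLtJ EpiSC and 0 in the 129 EpiSC. Thbs3 (-3.85) and Srf (-1.96, edgeR adjusted p = 0.0412) were lower in ESC. For Thbs3 this is a description, since it passed the filter through the EpiSC.

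In the NOD/ShiLtJ male iPSC against the 12 iPSC, 6 of 28 related genes were lower and 2 higher, a smaller share than the 47.0% called over all genes. Igfbp7, which binds insulin-like growth factors, showed the largest difference of the 8, with 10.6 ± 0.840 CPM against 133 ± 50.4 CPM (log2 fold change -3.58, SE 0.446, edgeR adjusted p = 7.58e-07). It is the gene that was lower on both scales (-1.22 per aligned read pair, edgeR adjusted p = 0.0143). Thbs3, Cald1, Ogn, Aebp1 and Vcl were lower with TMM only, and Vcl was higher per aligned read pair (1.56, edgeR adjusted p = 2.1e-05). Thbs3 had 1 count in each male clone, under the floor of 3 counts, and 0 to 4 in each of the 12 iPSC. It passed the filter through the EpiSC, so nothing is read from its call. Vim (1.48) and Serpinh1 (1.74) were higher, and with DESeq2 they did not pass (adjusted p = 0.0803 for both). In the change of medium, 1 of 13 related genes passed, Sfrp1, a secreted inhibitor of Wnt signalling, with 129 ± 34.9 CPM in 2iS against 24.6 ± 3.19 CPM in ESC/LIF in the 2 male clones (2.29, SE 0.566, edgeR adjusted p = 0.0209). DESeq2 did not call it (adjusted p = 0.124), and the female clones in ESC/LIF, outside this contrast, were at 68.9 and 85.6 CPM.

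Markers of fibroblasts and of other cells were set beside the members. All 9 collagens on the list had counts in ESC, and their sum was 856 to 1453 CPM in ESC, 0 to 51.9 CPM in the 12 iPSC, 17.5 and 32.0 CPM in the NOD/ShiLtJ male iPSC and 56.8 and 318 CPM in EpiSC. Col1a1, with 137 counts in ESC and 7 in the 12 iPSC, carried the largest part. Sums of matrix fibre (824.5 to 964 CPM in ESC, 136 to 403 CPM in the 12 iPSC) and matrix processing genes (699 to 1081, 90.5 to 243) did not overlap. Matricellular (524 to 592, 168 to 640), contractile (874 to 1088, 392 to 1449) and surface genes (699 to 910, 413 to 700) did. Named after their values were seen, Pdgfra (0 and 1 counts), Dcn (0 and 2), Lum (1 and 13), Fap (0 and 0) and Nt5e (6 and 51) were not higher in ESC. Of 9 endoderm markers only Dab2 had any, 1 count, in the ESC. Endothelial markers summed to 9.01 to 35.9 CPM in ESC and 0 to 35.6 CPM in the 12 iPSC, and the skeletal and cardiac muscle markers to 6.63 to 9.01 CPM and 0 to 55.9 CPM. Blood (13.3 to 27.0 CPM in ESC, 6.89 to 43.2 CPM in iPSC), neural (66.3 to 80.7 and 18.5 to 110 CPM) and epithelial markers (13.3 to 108 and 44.7 to 187 CPM) overlapped too. The part of fibroblasts in the cultures in these results was not tested.

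Likeness was measured over the 19 libraries as Pearson's r of log2 CPM across 4635 genes that are no members. Libraries share depth and cell state, and no p is given. The summed level of the 9 members was mostly Fn1, and the genes most like it were Dag1 (r = 0.830), Myh9 (0.818), Rreb1 (0.817), Mfsd10 (0.809), Tpd52 (0.797), 4933426M11Rik (0.784), Nid2 (0.783) and Lman2 (0.772). Dag1 encodes dystroglycan, a receptor for laminin, Myh9 non-muscle myosin and Nid2 a basement membrane protein. With the sum of Ccdc80 and Tnc alone, a profile added after seeing the data, the genes most like it included Col12a1 (0.974), Timp3 (0.914), Fbln2 (0.913), Col5a1 (0.898), Col1a1 (0.898), Prss57 (0.883) and Fam196a (0.854). Of these 7, 2 are genes of the related lists and 3 are collagens. The share of such genes among all genes compared was not computed. Ccdc80 and Tnc had been chosen for counts in ESC and absence from the iPSC compared with them. A ranking by their sum therefore favours genes with that same pattern, and nothing is read from it.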

How the data were processed

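RNA-seq libraries of 14 iPSC, 3 ESC and 2 EpiSC were analysed. Per the labels and methods, the authors trimmed reads with Trimmomatic, aligned read pairs to GRCm38/mm10 with TopHat 2.1.1, counted them on genes with HTSeq (intersection-nonempty) and deposited raw counts per gene, with no normalization. The order and settings of other steps, among them the strand setting of HTSeq, are not given in the sources used here. The kit is stranded, so a mismatched setting would count the strand opposite to each gene. The depth of 92996 to 567432 counts per library limits precision. Exact counting intervals (95%, scipy 1.17.1) and floors of 3 counts cover counting error only.

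The test was edgeR's quasi-likelihood test (edgeR 4.0.16 under R 4.3.3, with TMM, filterByExpr, glmQLFit, glmQLFTest, Benjamini-Hochberg over all genes tested, adjusted p under 0.05). A single fit of cell state held 17 libraries, all but the NOD/ShiLtJ male iPSC. NOD/ShiLtJ males were tested in a fit of all 19 libraries in 4 groups, and the medium among the 12 iPSC in 5 groups. Library sizes were recomputed after the filter on low counts. The fits were first run with library sizes from before the filter and this was changed after the results had been seen, to follow the earlier processing of these data. The first setting is given as an alternative, and the call of Fn1 between ESC and EpiSC turns on it. The model was tested on simulated data. DESeq2 (run here as 1.42.0), other library sizes, filters, samples and labels were alternatives. Library replicates are lines or clones, so p-values measure the spread between these. The 12 iPSC hold the male 129S1/SvImJ clones 1 and 17 in both media, and cell state was fitted without a clone term. Those p-values therefore take the libraries of such a clone as independent. Log2 CPM for likeness used a prior count of 2, and exon positions are from GENCODE M21, with 98.5% of the genes matched by symbol.

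The members and the lists of related genes were chosen with earlier results of these data known. Named are all 9 members, at most 12 related genes per comparison past the test with the largest change, genes that carry a list's total, and the 8 genes most like the members. A single gene that this rule names is counted but not reported here. The 129S1/SvImJ male clones 1 and 17 are the same clones in both media, which pairs them. Their deviations from the group means correlated with r = 0.0488 over 4641 genes, and the fit with the clone as a block is an alternative.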

Additional observations from a re-analysis of the deposited data

Results flagged for a closer look

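Among 10 groups of 4 clones with any count of a member, 2 held a clone far from the others. Both were Acta2 in iPSC: WSB/EiJ clone 12 was at 5.33 CPM and the other 3 WSB/EiJ clones at 0, and 129S1/SvImJ clone 1 in ESC/LIF was at 8.95 CPM and the other 3 clones in that medium at 0. These are 1 and 2 counts, under the floor of 3 counts. With 3 values at 0 any single count stands apart in this way, so the usual rate of about 1 group in 20 by chance does not apply.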

How the results depend on the processing

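Few counts per gene set the limit: 3 members could not be tested, and the calls of members against EpiSC turned on 1 EpiSC line. The fits were first run with library sizes from before the filter on low counts, a setting replaced after its results were seen. With it Fn1 passed between ESC and EpiSC (1.84, edgeR adjusted p = 0.0450, against 1.78 and 0.0516), and no other call of a member and no count of related genes changed. Fn1 also passed there with DESeq2 (0.0327), aligned read pairs (0.0181), at least 10 counts in every library (0.0102), no filter (6.48e-05) and strain as a covariate (0.0343). With the groups read from source name and characteristics in place of titles, related genes called were 0 for iPSC against ESC, 0 for iPSC against EpiSC and 0 for ESC against EpiSC, members with every ESC above every iPSC were 0, and the log2 fold changes that turned sign were Ccdc80 (0.0145), Fn1 (0.578), Sparc (0.303) and Tagln (-0.216) for iPSC against ESC, Tnc (2.46), Thbs1 (2.29), Tagln (0.522) and Sparc (0.0649) for iPSC against EpiSC, and Tagln (0.737) and Sparc (-0.238) for ESC against EpiSC. With no filter on low counts, related genes called numbered 26 (iPSC against ESC), 30 (iPSC against EpiSC) and 9 (ESC against EpiSC) of 110 tested. Of all 16808 genes, 86 were then called higher and 514 lower for iPSC against ESC. The numbers were 606 and 1268 for iPSC against EpiSC, and 432 and 382 for ESC against EpiSC. With at least 10 counts in every library only 2 related genes were tested, and the calls were 0, 0, 0, 1 (NOD/ShiLtJ males) and 0 (medium). Leaving out 1 ESC or EpiSC line gave 7 to 12 calls for iPSC against EpiSC and 3 to 8 for ESC against EpiSC. Genes without opposite-strand exons gave 3 of 17 for ESC against EpiSC and 3 of 19 for the NOD/ShiLtJ males. For those males DESeq2 called 5 of the related genes, where 556 of all 4641 genes were higher and 1311 lower. Aligned read pairs called 22 (21 higher), where 3546 of all 4641 genes were called, so nothing is read from this count. Against EpiSC, Tagln in iPSC was at 0.302 without the 129 line and -2.12 without the NOD/ShiLtJ line, and did not pass with male iPSC alone (edgeR adjusted p = 0.0817) or with NOD/ShiLtJ males among the iPSC (edgeR adjusted p = 0.0584). For the medium DESeq2 called 0, 0 to 1 were called without a 2iS clone, and the replicate block gave 1 call, with log2 fold changes of 0.13 for Fn1, -0.04 for Sparc and -0.26 for Tagln, and changed no call. The cause of these changes was not tested. Of 72 alternative counts, 47 stayed within 1.5 times the value reported.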
